A study of Homo sapiens with 9 samples.

Results

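The antisense RNAs described here are 201 genes chosen by their symbol and their signal: the array annotation gives exactly 1 symbol ending in -AS1, and the brightest probe set averaged a log2 value of at least 7.5 over all 9 arrays. They were drawn from 706 measured -AS1 genes, of which 505 lay below that level, and from 19775 measured genes in all. Of the -AS1 genes 28.5% reached the level, against 63.8% (12611) of all genes. For 187 of the 201 antisense RNAs the sense gene, the gene whose symbol is left when -AS1 is removed, was also measured. Expression was measured in H69 cells, an established neuroendocrine cell line from a human small cell lung cancer, on 9 Affymetrix arrays. The cells had been kept for 24 h in complete medium with PIK75 at 100 nM (3 arrays), with TGX221 at a labelled 1 mM (3 arrays), or with the vehicle DMSO (3 control arrays, whose own treatment label reads none). PIK75 and TGX221 are inhibitors of phosphoinositide 3-kinases, the lipid kinases that pass on growth factor signals, and differ in the isoforms they prefer. The labelled doses differ, and nothing in the files checks the millimolar unit for TGX221, so the inhibitors were not compared at a matched dose. The labels do not say that the 3 arrays of a group came from separate cultures, so p-values reflect array-to-array spread that may be technical, and the small number of arrays limits the precision.

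An antisense RNA is transcribed from the strand opposite to a named gene, and the suffix -AS1 records that position, not a function. Some antisense RNAs start back to back with the sense gene from a shared promoter, others begin inside the sense gene or beyond its end, and a few act on chromatin, RNA stability or translation while most have no known role. Many are spliced, polyadenylated and kept in the nucleus, where the RNA exosome removes short or unstable transcripts.

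The level of 7.5 chose the genes and is a description. JMJD1C-AS1 (mean log2 value 7.501) and CARD8-AS1 (7.509) lay just inside it, and B3GALT5-AS1 (7.498) and HPS1-AS1 (7.494) just outside. Because the mean was taken over all 9 arrays, a gene could reach the level through the PIK75 arrays. Of the 201 antisense RNAs, 12 had a control mean below 7.5, ZSCAN16-AS1 among them, and all 12 had a positive log2 fold change with PIK75. The level does not by itself show expression. Of 9 markers of other cell types that a culture could hold (PTPRC, COL1A1, COL1A2, DCN, PECAM1, CDH5, SFTPC, SFTPB and KRT5), 5 also read 7.5 or above, up to 9.38 for COL1A1. Of the neuroendocrine markers, CHGA averaged a log2 value of 12.82, INSM1 13.01, NCAM1 12.12 and SYP 9.34. CHGA, INSM1 and NCAM1 thus read far above the markers of other cell types, while SYP lay at the level of COL1A1.

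The antisense RNAs lay on many chromosomes, with 24 on chromosome 1, 15 on chromosome 7 and 13 on chromosome 3, and 198 of them matched the RefSeq gene table. RefSeq start sites in build GRCh38.p14 were held for 155 of them, as 185 windows that run from 250 bases before to 50 bases after a start. In 75 of the 187 pairs a start of the antisense RNA lay within 1000 bases of a start of the sense gene on the opposite strand. In 55 pairs the genes overlapped with starts further apart, in 5 they did not overlap, and 52 pairs were not classified. The windows of the antisense RNAs were rich in CpG, with a median of 25 CpG and 66.3% G and C, against 14 CpG and 58.7% over 35116 windows of 27305 genes.

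The promoter windows of 5 antisense RNAs are shown because the results turn on these genes: the 2 with the largest rises with PIK75, the 2 with the largest falls, and 1 of those called higher with TGX221. RFX5-AS1 (chr1:151346760-151347059, plus strand) starts 11 bases from the nearest RFX5 start, NNT-AS1 (chr5:43603181-43603480, minus strand) 50 bases from that of NNT, and EIF1B-AS1 (chr3:40309649-40309948, minus strand) 9 bases from that of EIF1B. EPB41L4A-AS1 (chr5:112160276-112160575, plus strand) starts 258751 bases from the start of EPB41L4A, and the start of ZSCAN16 was not given beside that of ZSCAN16-AS1 (chr6:28137267-28137566, minus strand). Each window is written 5′ to 3′ on the strand of the antisense RNA, and capitals mark matches on either strand to CCAAT, to the GC box GGGCGG, to the TATA box TATAAA, to the ETS core CCGGAA or to the E-box CACGTG.
ZSCAN16-AS1: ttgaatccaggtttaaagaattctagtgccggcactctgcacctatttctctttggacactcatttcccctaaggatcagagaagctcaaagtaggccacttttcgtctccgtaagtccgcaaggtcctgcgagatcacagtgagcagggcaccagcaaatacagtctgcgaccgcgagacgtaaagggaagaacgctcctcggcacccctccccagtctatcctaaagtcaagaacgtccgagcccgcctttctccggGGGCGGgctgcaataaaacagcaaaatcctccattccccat
EPB41L4A-AS1: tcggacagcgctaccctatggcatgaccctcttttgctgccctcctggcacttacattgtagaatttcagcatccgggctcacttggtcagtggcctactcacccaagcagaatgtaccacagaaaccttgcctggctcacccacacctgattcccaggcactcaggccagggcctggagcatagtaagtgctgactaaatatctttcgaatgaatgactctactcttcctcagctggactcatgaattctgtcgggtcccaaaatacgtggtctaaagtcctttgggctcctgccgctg
RFX5-AS1: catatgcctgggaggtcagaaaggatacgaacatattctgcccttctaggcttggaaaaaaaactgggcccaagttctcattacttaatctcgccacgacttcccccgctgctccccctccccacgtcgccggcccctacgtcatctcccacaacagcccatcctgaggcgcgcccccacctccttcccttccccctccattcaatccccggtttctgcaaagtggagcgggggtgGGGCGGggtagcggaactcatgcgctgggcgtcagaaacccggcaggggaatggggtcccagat
NNT-AS1: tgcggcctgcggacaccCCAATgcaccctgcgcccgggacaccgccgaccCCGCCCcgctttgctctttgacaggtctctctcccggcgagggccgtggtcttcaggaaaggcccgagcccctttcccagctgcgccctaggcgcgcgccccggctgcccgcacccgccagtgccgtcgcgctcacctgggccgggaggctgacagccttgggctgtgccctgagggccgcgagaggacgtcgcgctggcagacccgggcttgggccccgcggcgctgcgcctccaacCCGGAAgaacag
EIF1B-AS1: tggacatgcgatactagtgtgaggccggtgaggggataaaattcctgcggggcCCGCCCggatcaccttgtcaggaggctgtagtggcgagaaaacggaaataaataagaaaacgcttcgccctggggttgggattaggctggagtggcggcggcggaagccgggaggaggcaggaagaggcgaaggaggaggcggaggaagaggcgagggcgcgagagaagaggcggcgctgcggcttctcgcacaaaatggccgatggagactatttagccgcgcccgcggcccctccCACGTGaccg
The window of NNT-AS1 held 34 CpG and matches to CCAAT, the GC box and the ETS core, that of EIF1B-AS1 held a GC box and an E-box, those of ZSCAN16-AS1 and RFX5-AS1 held 1 GC box each, and that of EPB41L4A-AS1 held 7 CpG and no match. Over all windows the GC box was found in 45% and in 61.6% of the 185 windows of the antisense RNAs, CCAAT in 34.6% and 29.7%, the TATA box in 11.5% and 4.32%, the ETS core in 17.2% and 23.8%, and the E-box in 7.26% and 10.3%. These are matches of letters, binding was not measured, and the windows compared were not limited to expressed genes.

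With PIK75, 134 of the 201 antisense RNAs passed the test against control (limma over all genes, adjusted p below 0.05), 96 of them higher and 38 lower, and 67 did not pass. Of the 96, 9 were among the 12 antisense RNAs with a control mean below 7.5, so the choice of genes favoured these rises. With a control mean of at least 7.5 required instead, 87 of 191 were called higher and 39 lower. Among all genes 60.4% passed (35.2% higher and 25.2% lower), and among all genes at 7.5 or above 70.5% passed (34.4% higher and 36.1% lower), so the share of 66.7% among the antisense RNAs lay near the background. The median log2 fold change of the 201 was 0.16, beside 0.09 over all genes and 0.02 over genes at 7.5 or above. The rises were small. Of the 96 antisense RNAs called higher, 91 changed by less than 1.5-fold and their median was 0.28, while 24 of the 38 called lower changed by less than 1.5-fold and their median was -0.42. At 1.5-fold or more, 5 antisense RNAs rose and 14 fell, beside 1.48% of all genes that rose and 10.4% that fell that far. The 3 PIK75 arrays did not overlap the 3 control arrays for 141 of the 201 (70.1%), beside 64.7% of all genes.

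The balance of rises and falls moved with the scale. The deposited values make all arrays alike in distribution, so a shift common to most genes could not be measured from them. With the arrays centred on the poly-A spikes, RNAs added before labelling, 33 antisense RNAs were called higher and 41 lower with PIK75. With the arrays centred on the hybridization spikes, added after labelling, 6 were called higher and 107 lower, and the median log2 fold change of all genes stood at -0.26 in place of 0.09. After cyclic loess 57 were called higher and 44 lower. The markers of other cell types, which this line should lack, moved the same way: 8 of the 9 had a positive log2 fold change with PIK75 (-0.06 to 0.40, median 0.21), 5 were called higher and 0 lower. Their mean log2 value was 7.86, 7.86 and 7.99 on the PIK75 arrays, 7.71, 7.65 and 7.74 on the TGX221 arrays and 7.70, 7.78 and 7.65 on the control arrays. The 3′ minus 5′ difference of actin probe sets, a sign of RNA or labelling quality, was 0.47, 0.54 and 1.13 on the PIK75 arrays, 0.26, 0.42 and 0.33 on the TGX221 arrays and 0.24, 0.29 and 0.44 on the control arrays. The part of either in the small rises was not tested. Without PIK75 replicate 5, the array with the highest actin difference, 114 antisense RNAs were called, 81 higher and 33 lower.

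**Figure D1:**
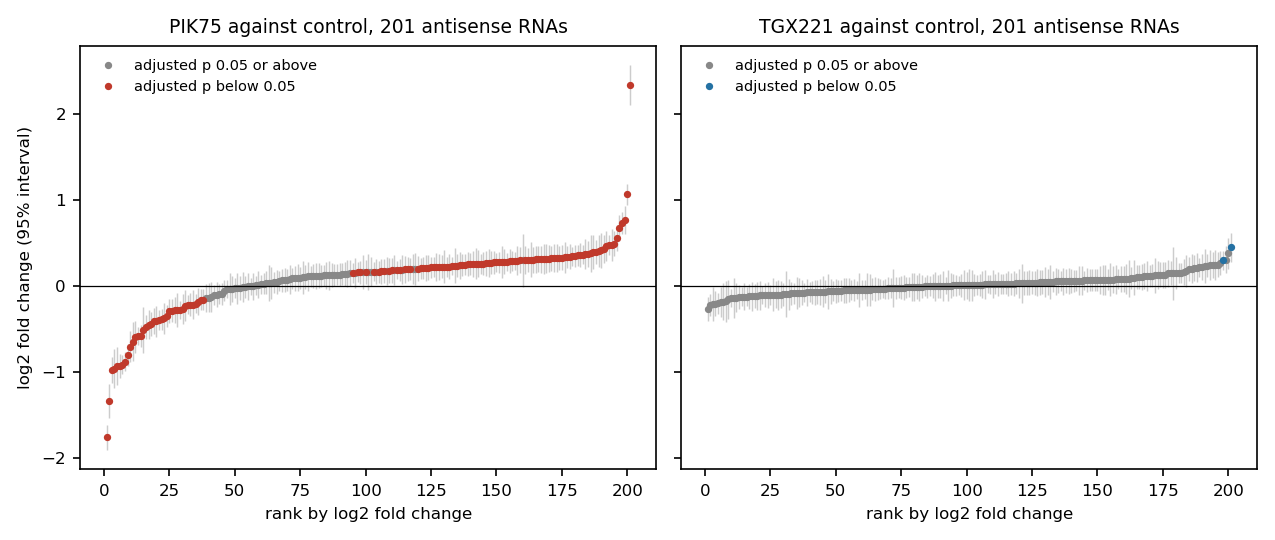
Log2 fold changes of the 201 antisense RNAs, ranked, for PIK75 against control (left) and TGX221 against control (right), with 95% intervals as grey lines. With PIK75 96 are called higher and 38 lower (red), and ZSCAN16-AS1 stands above the rest at 2.33. With TGX221 2 are called higher (blue) and no value exceeds 0.45 in size.

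The balance also differed with brightness. Among the 121 antisense RNAs with a mean of 7.5 to below 8.5, 45.5% were called higher and 14% lower with PIK75, and their median log2 fold change was 0.16. All 3847 genes in that range gave 47.3% higher and 19% lower, with the same median of 0.16. Among the 80 antisense RNAs at 8.5 or above, 51.2% were called higher and 26.2% lower with a median of 0.19, whereas of all 8764 genes at that level 28.8% were called higher and 43.6% lower with a median of -0.08. The 505 antisense genes below 7.5 had 164 called higher (32.5%) and 19 lower (3.76%), beside 35.2% and 25.2% of all genes at any level. Shares of all genes below 7.5 were not taken, so these counts do not set dim antisense genes apart from other dim genes.

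**Figure D2:**
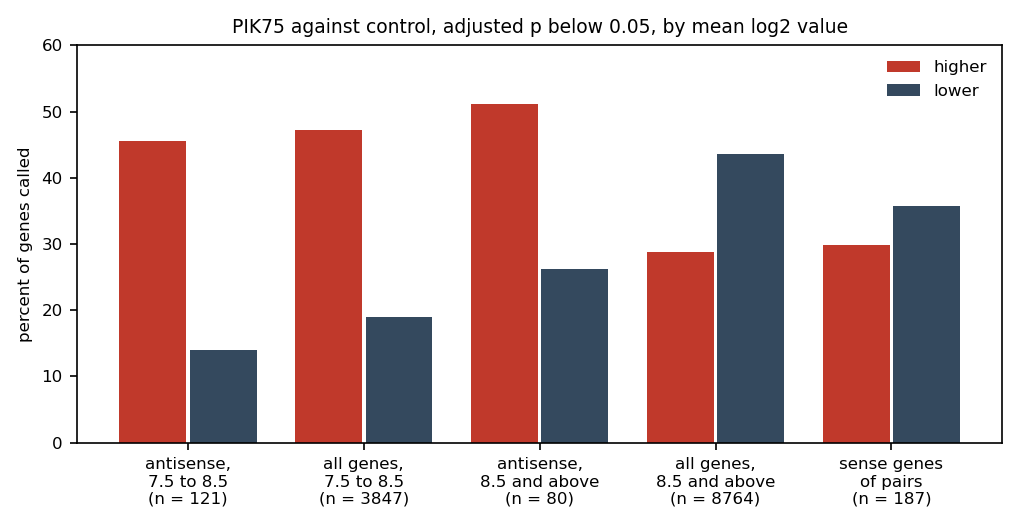
Percent of genes called higher (red) and lower (dark) with PIK75 against control, for antisense RNAs and all genes in 2 ranges of mean log2 value and for the 187 sense genes. In the lower range the antisense RNAs resemble all genes (45.5% and 47.3% higher), while at 8.5 and above 51.2% of the antisense RNAs and 28.8% of all genes are called higher. The upper range has no upper bound, and levels within it were not matched.

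ZSCAN16-AS1, an antisense RNA of a zinc finger gene cluster next to the MHC, rose most of all, and its values are given as a description because it was picked for them. Its log2 value was 9.83, 9.41 and 9.59 on the PIK75 arrays, 7.23, 7.19 and 6.87 on the TGX221 arrays and 7.34, 7.19 and 7.31 on the control arrays. All 3 PIK75 arrays lay far above the other 6, and the change was 5.04-fold (log2 fold change 2.33, SE 0.11). ZSCAN16, which encodes a zinc finger protein with a SCAN domain, read 8.67, 8.68 and 8.70 with PIK75, 8.86, 8.83 and 8.83 with TGX221 and 8.83, 8.88 and 8.98 in control. Its PIK75 arrays lay just under the others (log2 fold change -0.21, SE 0.05, adjusted p = 0.00376), and the antisense change exceeded the sense change by 2.55 (95% interval 2.30 to 2.79). The rise rested on 1 of 3 probe sets. The other probe sets of ZSCAN16-AS1 were dim, with mean log2 values of 4.88 and 6.70, and had log2 fold changes of -0.10 and -0.09 that did not pass (limma over all probe sets, adjusted p = 0.116 and 0.212). With the mean of the 3 probe sets in place of the brightest, the log2 fold change was 0.71.

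Of 12 zinc finger and neighbouring genes of the ZSCAN16 cluster, 2 were called higher and 5 lower with PIK75, or 58.3% called beside 60.4% of all genes. On the hybridization spikes 0 were higher and 9 lower. ZNF165, a zinc finger gene known for expression in testis and tumours, fell by 1.73 on the log2 scale (adjusted p = 1.01e-08) and averaged 6.61 with PIK75, 8.14 with TGX221 and 8.34 in control. ZSCAN31 fell by 0.62 (adjusted p = 0.000229). NKAPL and the dim ZSCAN23 were higher by 0.32 and 0.25 (adjusted p = 0.00211 and 0.00149). The remaining calls were small falls in ZKSCAN8 (-0.31), PGBD1 (-0.22) and ZSCAN16 itself, and ZSCAN9, ZSCAN12, ZKSCAN3, ZKSCAN4 and ZSCAN26 did not pass, with log2 fold changes from -0.12 to 0.16. On its brightest probe set ZSCAN16-AS1 rose further than any gene of the list, and the fall of ZNF165 was larger than the 0.71 by which ZSCAN16-AS1 rose with the mean of its probe sets.

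**Figure D3:**
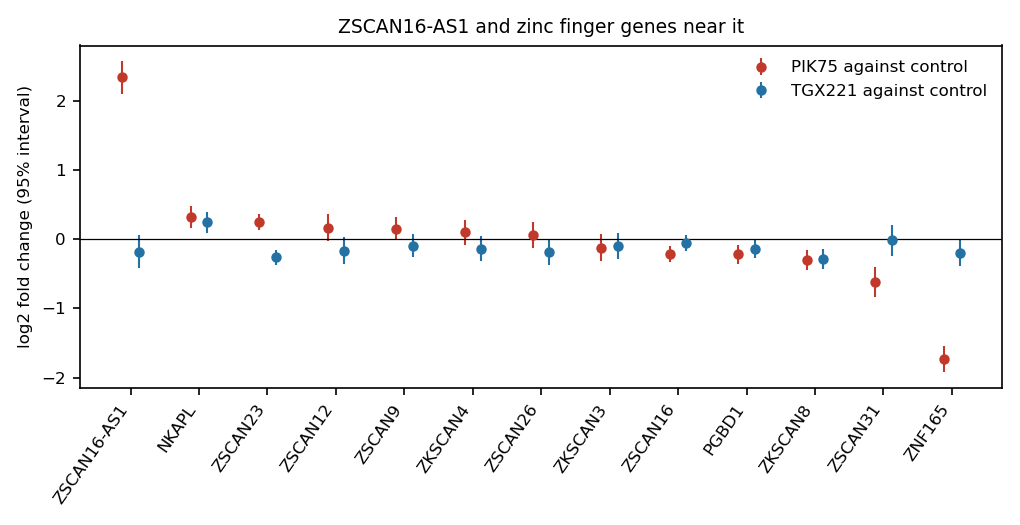
Log2 fold changes with 95% intervals of ZSCAN16-AS1 and 12 genes of its zinc finger cluster, for PIK75 against control (red) and TGX221 against control (blue). ZSCAN16-AS1 stands at 2.33 with PIK75, the next gene, NKAPL, at 0.32 and ZNF165 at -1.73.

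EPB41L4A-AS1, a spliced RNA whose introns carry a small nucleolar RNA, was among the brightest antisense RNAs and rose as well. Its log2 value was 12.38, 12.42 and 12.28 with PIK75, 11.40, 11.33 and 11.38 with TGX221 and 11.30, 11.36 and 11.24 in control. The PIK75 arrays stood clear of the rest, at 2.09-fold over control (log2 fold change 1.06, SE 0.06). EPB41L4A, which encodes a protein with a FERM domain, read 9.08, 8.85 and 8.89 with PIK75, 9.44, 9.42 and 9.38 with TGX221 and 9.58, 9.59 and 9.57 in control. The sense gene thus fell (log2 fold change -0.64, adjusted p = 2.45e-06) while the antisense RNA was higher, a difference of 1.70 (1.51 to 1.89). A second probe set of EPB41L4A-AS1, much dimmer at 6.45, had a log2 fold change of 0.12 that did not pass (adjusted p = 0.162 over all probe sets).

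TTC28-AS1 moved against its sense gene in the same sense. It read 9.40, 9.18 and 9.27 with PIK75, 8.42, 8.52 and 8.58 with TGX221 and 8.47, 8.44 and 8.66 in control, so that the PIK75 arrays did not overlap either group. Its rise was 1.70-fold (log2 fold change 0.76, SE 0.08, adjusted p = 3.08e-06), and a dimmer probe set also rose (0.35) while the dimmest did not pass (0.00). TTC28, a large tetratricopeptide repeat protein, read 7.99, 8.13 and 8.11 with PIK75, 8.66, 8.92 and 8.74 with TGX221 and 8.79, 8.78 and 8.97 in control. It fell by 0.77 on the log2 scale (adjusted p = 3.19e-06), which left a difference between antisense and sense of 1.53 (1.32 to 1.74).

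The other rises of 1.5-fold or more were in MCF2L-AS1 (log2 fold change 0.73, adjusted p = 5.13e-07) and PSMG3-AS1 (0.67, adjusted p = 4.52e-06). MCF2L, a guanine nucleotide exchange factor, fell by 0.37, and PSMG3, a chaperone of proteasome assembly, did not pass (0.10, adjusted p = 0.12). Below that size, SSTR5-AS1 rose by 0.56 together with the somatostatin receptor gene SSTR5 (0.48), and ZNF407-AS1 rose by 0.48 while ZNF407 did not pass (-0.11, adjusted p = 0.0801). MAPKAPK5-AS1 rose by 0.49 on its brightest probe set, but another bright probe set of the same gene, at a mean of 9.52, fell by 0.33. PIK3CD-AS1 rose by 0.19 (adjusted p = 0.0223) and PIK3CD, which encodes a catalytic subunit of phosphoinositide 3-kinase, by 0.44.

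Among the antisense RNAs that fell with PIK75, one group fell with the sense gene. RFX5-AS1 had the largest fall. Its log2 value was 6.51, 6.36 and 6.42 with PIK75, 8.10, 8.15 and 7.98 with TGX221 and 8.11, 8.21 and 8.27 in control. The PIK75 arrays lay more than 1 log2 unit below all others, at 3.4-fold below control, a log2 fold change of -1.77 (SE 0.07, adjusted p = 1.5e-09). RFX5, a transcription factor of MHC class II genes, read 9.55, 9.41 and 9.58 with PIK75, 10.36, 10.33 and 10.30 with TGX221 and 10.34, 10.27 and 10.43 in control. It fell by 0.84 on the log2 scale (adjusted p = 2.25e-07), less than its antisense RNA by 0.93 (difference -0.93, -1.12 to -0.74).

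PEG3-AS1 and its imprinted sense gene PEG3, which encodes a zinc finger protein, fell by like amounts. PEG3-AS1 read 7.93, 8.26 and 7.82 with PIK75, 8.93, 9.06 and 8.91 with TGX221 and 8.80, 9.08 and 8.93 in control, with no overlap between PIK75 and control (log2 fold change -0.93, SE 0.10, adjusted p = 8.82e-06). PEG3 read 10.28, 10.22 and 10.28 with PIK75, 11.22, 11.29 and 11.27 with TGX221 and 11.29, 11.31 and 11.37 in control (log2 fold change -1.06, SE 0.05, adjusted p = 6.56e-09). The interval of their difference held 0 (0.13, -0.11 to 0.37). OTUD6B-AS1 likewise fell with OTUD6B, a deubiquitinase. It read 8.70, 8.54 and 8.66 with PIK75, 9.40, 9.44 and 9.31 with TGX221 and 9.40, 9.48 and 9.44 in control (log2 fold change -0.81, SE 0.06, adjusted p = 2.19e-07). OTUD6B read 7.99, 7.80 and 7.80 with PIK75, 8.69, 9.13 and 8.69 with TGX221 and 8.96, 8.93 and 9.09 in control (log2 fold change -1.13, SE 0.11, adjusted p = 1.85e-06). The PIK75 arrays of both genes lay below all other arrays, and the sense gene fell more, by 0.32 (0.10 to 0.54).

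ZBED5-AS1 fell more than ZBED5, a gene derived from a DNA transposon. The antisense RNA read 7.998, 7.96 and 8.05 with PIK75, 8.78, 8.82 and 8.68 with TGX221 and 8.89, 8.87 and 8.90 in control (log2 fold change -0.88, SE 0.05, adjusted p = 4.15e-08). ZBED5 read 10.86, 10.78 and 10.77 with PIK75, 11.31, 11.26 and 11.32 with TGX221 and 11.16, 11.16 and 11.29 in control (log2 fold change -0.40, SE 0.06, adjusted p = 5.67e-05). Neither gene's PIK75 arrays overlapped the controls. Only the brightest probe set of ZBED5 showed the fall. A dimmer one, at a mean of 7.67, rose by 0.24 (adjusted p = 0.0182, limma over all probe sets). Another, at 8.04, did not pass (0.09, adjusted p = 0.424 over all probe sets). PSMA3-AS1 fell more than PSMA3, a subunit of the proteasome core. PSMA3-AS1 read 8.26, 8.07 and 8.02 with PIK75, 8.96, 9.10 and 9.01 with TGX221 and 9.11, 9.02 and 9.16 in control (log2 fold change -0.98, SE 0.07, adjusted p = 1.82e-07), and both of its dimmer probe sets fell as well (-0.27 and -0.39). PSMA3 read 12.48, 12.46 and 12.41 with PIK75, 12.63, 12.59 and 12.59 with TGX221 and 12.63, 12.58 and 12.59 in control (log2 fold change -0.15, adjusted p = 0.017). That small fall turned to 0.047 with the mean of the PSMA3 probe sets. DSP-AS1 and the desmosome gene DSP fell by 0.71 and 0.39, and DLX6-AS1, the brightest of all 201 at a mean log2 value of 12.81 and known in mouse as Evf2, fell by 0.59 beside 0.54 for the homeobox gene DLX6.

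A second group fell while the sense gene did not pass the test. NNT-AS1 read 8.36, 8.44 and 8.06 with PIK75, 9.52, 9.69 and 9.47 with TGX221 and 9.61, 9.57 and 9.71 in control. It was 2.53-fold below control with no overlap (log2 fold change -1.34, SE 0.09, adjusted p = 1.28e-07). NNT, the mitochondrial enzyme that makes NADPH from NADH, read 11.17, 11.11 and 10.82 with PIK75, 11.05, 11.21 and 11.00 with TGX221 and 11.11, 11.14 and 11.15 in control, and its groups overlapped (log2 fold change -0.10, adjusted p = 0.336). A dimmer NNT probe set, at a mean of 8.66, did fall (-0.68, adjusted p = 4.09e-05 over all probe sets). RUSC1-AS1 read 7.79, 7.83 and 7.65 with PIK75, 8.28, 8.70 and 8.71 with TGX221 and 8.80, 8.60 and 8.76 in control (log2 fold change -0.96, SE 0.10, adjusted p = 7.08e-06). RUSC1, an adaptor protein with an SH3 domain, read 8.93, 8.82 and 8.92 with PIK75, 8.74, 8.74 and 8.77 with TGX221 and 8.88, 8.90 and 9.12 in control (log2 fold change -0.08, adjusted p = 0.334). The antisense RNA was separated from control and the sense gene was not, although a dimmer probe set of RUSC1-AS1 did not pass either (-0.06, adjusted p = 0.601 over all probe sets).

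FOXP4-AS1 read 7.78, 7.70 and 7.56 with PIK75, 8.31, 8.40 and 8.31 with TGX221 and 8.55, 8.61 and 8.68 in control. Its PIK75 arrays were the lowest (log2 fold change -0.93, SE 0.06, adjusted p = 1.36e-07), and its TGX221 arrays also lay below the controls without passing the test (-0.27, adjusted p = 0.0651). FOXP4, a forkhead transcription factor of lung and gut development, read 8.58, 8.53 and 8.67 with PIK75, 8.74, 8.70 and 8.67 with TGX221 and 8.71, 8.71 and 8.58 in control (log2 fold change with PIK75 -0.07, adjusted p = 0.297). PRR34-AS1 read 9.36, 9.31 and 9.32 with PIK75, 10.17, 10.19 and 10.15 with TGX221 and 10.25, 10.18 and 10.32 in control (log2 fold change -0.92, SE 0.05, adjusted p = 2.69e-08). PRR34, a gene for a proline-rich protein, read 8.42, 8.47 and 8.59 with PIK75, 8.39, 8.30 and 8.26 with TGX221 and 8.40, 8.38 and 8.27 in control (log2 fold change 0.14, adjusted p = 0.0649). In these 4 pairs the antisense change lay below the sense change by 0.86 to 1.24 on the log2 scale, and none of the intervals held 0. DHRS4-AS1, whose sense gene has no value here, fell by 0.65 (adjusted p = 0.000221). A dimmer probe set of DHRS4-AS1, at a mean of 6.83, did not pass (0.04, adjusted p = 0.646, limma over all probe sets).

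**Figure D4:**
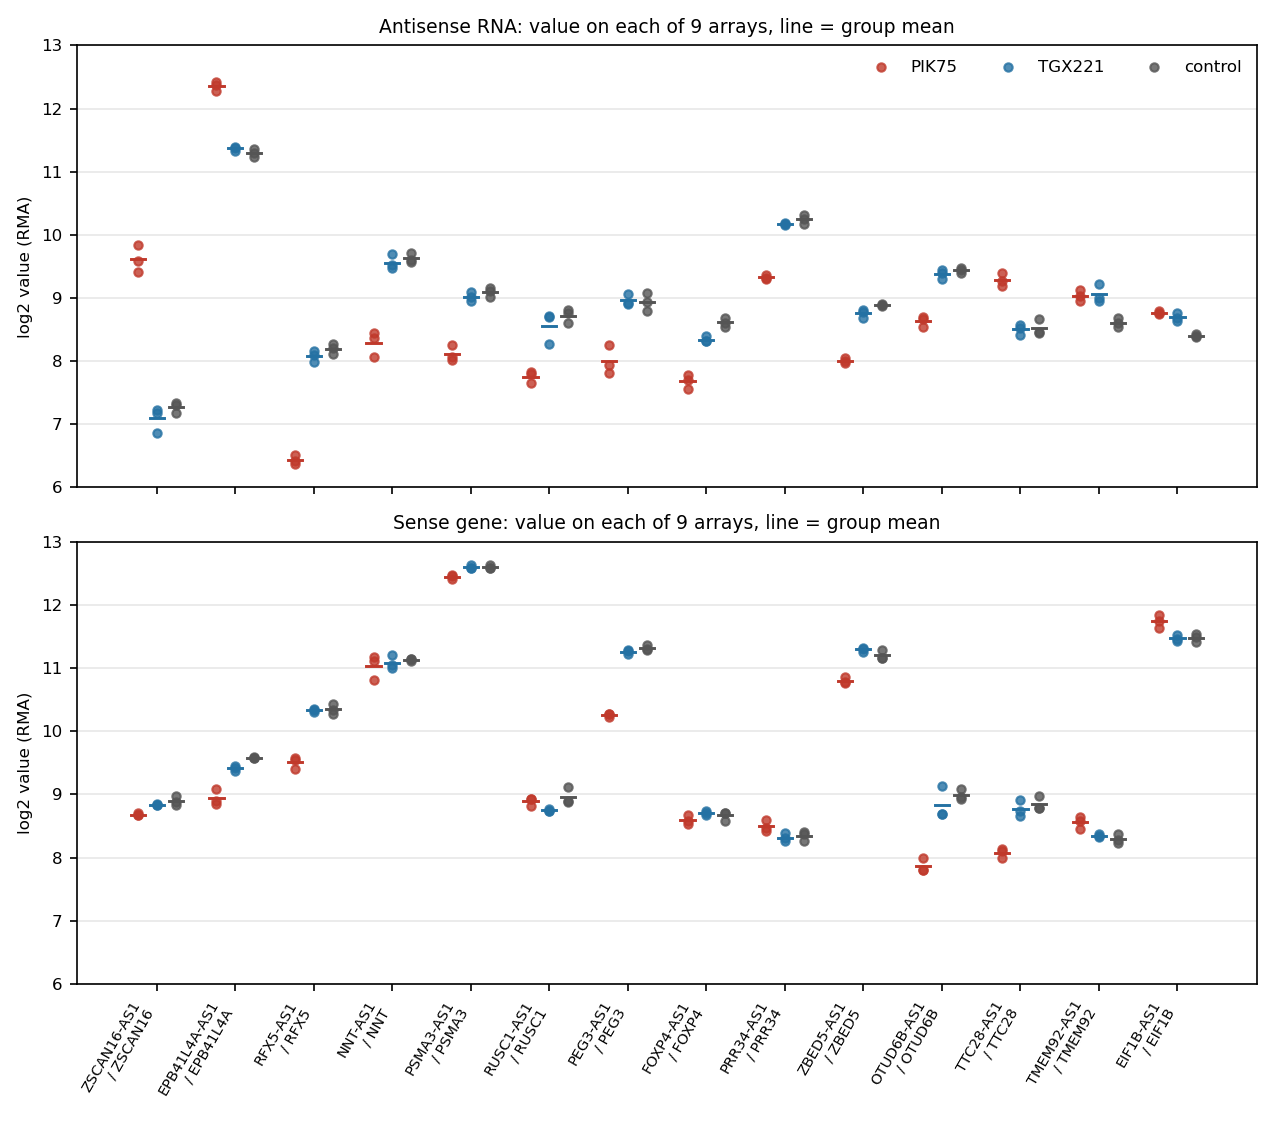
Log2 values on each of the 9 arrays for the 14 antisense RNAs given in full (top) and their sense genes (bottom), with PIK75 in red, TGX221 in blue, control in grey and lines at the group means. For the first 12 antisense RNAs the PIK75 points stand apart from both other groups, as ZSCAN16-AS1 does at 9.41 to 9.83. The TGX221 points stand above control for TMEM92-AS1 and EIF1B-AS1. They also lie below control for FOXP4-AS1 and ZBED5-AS1, which did not pass the test.

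The sense genes were called about as often as other genes of their level. Of the 187, 123 passed the test with PIK75, 56 higher (29.9%) and 67 lower (35.8%), beside 34.4% and 36.1% of all genes at 7.5 or above, and their median log2 fold change was -0.04. On the poly-A spikes 22 were higher and 73 lower, and on the hybridization spikes 2 and 136. At 1.5-fold or more, 2 of the 187 rose and 25 fell, beside 1.48% of all genes that rose and 10.4% that fell that far. Of the 12611 genes at 7.5 or above, 249 rose and 1929 fell that far. Both genes of a pair passed in 82 pairs, of which 42 changed the same way (26 both higher, 16 both lower) and 40 in opposite ways (33 with the antisense RNA higher and the sense gene lower, 7 the reverse). This split depended on the scale: 19 pairs changed the same way and 21 in opposite ways on the poly-A spikes, 31 and 30 after cyclic loess, but 71 and 7 on the hybridization spikes, where 66.3% of all genes were called lower. Of the 201 antisense RNAs 47.8% were called higher and 18.9% lower, while the sense genes were more often lower. With such shares, unrelated genes too would more often pair an antisense rise with a sense fall than the reverse. The counts expected of unrelated genes were not taken, so 33 against 7 does not show an opposing response. Only the antisense RNA passed in 44 pairs, only the sense gene in 41, and neither in 20. Across the 187 pairs the antisense and sense changes had a Pearson r of 0.05 and a Spearman rank correlation of 0.01, a description over pairs that share the same arrays. The difference of the antisense and the sense change had a 95% interval without 0 in 116 pairs, or 77 with the antisense RNA above and 39 with it below. Among the 465 pairs whose antisense gene was below 7.5 the share was 50.8%. That count of 116 held with the arrays centred on either set of spikes, since a shift of a whole array cancels within a pair, and cyclic loess gave 67 above and 49 below.

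Pairs that changed the same way and pairs that changed in opposite ways were about as many in each class of position on the deposited scale. Where starts lay within 1000 bases of each other, 15 pairs changed the same way and 14 in opposite ways (r 0.09, n = 75). In these pairs 29 antisense RNAs were called higher (38.7%) and 18 lower (24%), beside 14 sense genes higher (18.7%) and 34 lower (45.3%). All genes gave 47.3% higher and 19% lower at 7.5 to below 8.5, and 28.8% and 43.6% at 8.5 or above. The part of brightness in these shares was not tested. Among overlapping pairs with starts further apart, 12 changed the same way and 10 in opposite ways (r -0.11, n = 55). Here 26 antisense RNAs were higher (47.3%) and 11 lower (20%), beside 19 sense genes higher (34.5%) and 15 lower (27.3%). The 52 pairs that were not classified gave 14 and 15. On the hybridization spikes the counts were 43 the same way and 3 in opposite ways for the near starts, 17 and 2 for the overlapping pairs, and 11 and 2 for the pairs not classified.

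**Figure D5:**
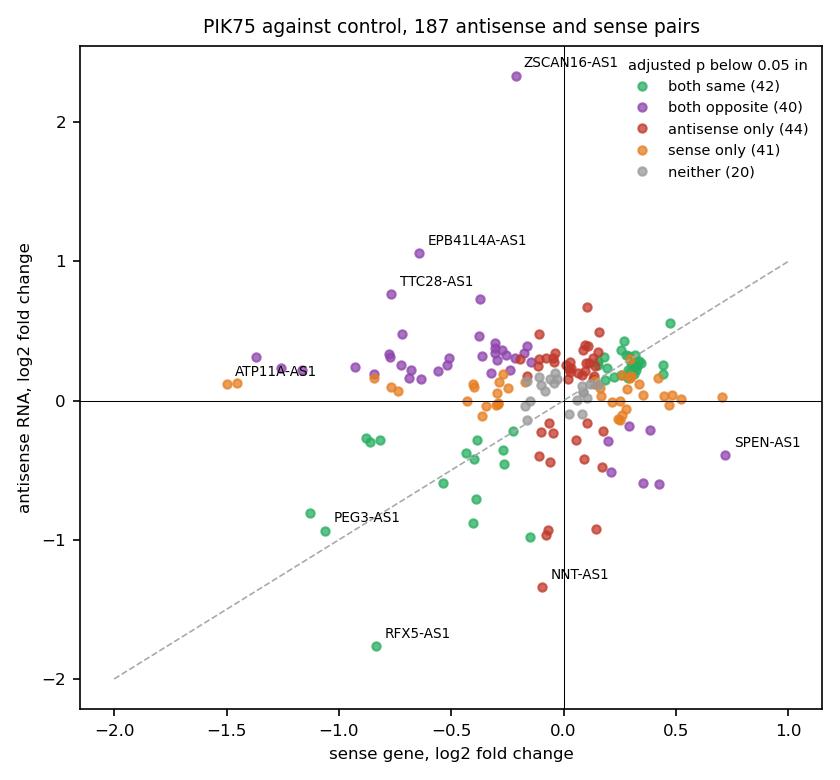
Log2 fold change with PIK75 against control of each antisense RNA (vertical) against its sense gene (horizontal) for 187 pairs, coloured by which gene of the pair passed the test, with the dashed line at equal change. Pairs called the same way (42, green) and in opposite ways (40, purple) are about as many on this scale, against 71 and 7 with the arrays centred on the hybridization spikes, and ZSCAN16-AS1 and RFX5-AS1 stand at the extremes.

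The pairs with the largest falls of a sense gene are given as a description. Of the 187 sense genes 7 fell by at least 1 log2 unit, and of their antisense RNAs 2 were called lower (OTUD6B-AS1 and PEG3-AS1), 3 higher and 2 neither. Among all 201 antisense RNAs 18.9% were called lower and 47.8% higher, and 7 pairs are too few to set apart from these shares. ATP11A, a phospholipid flippase, fell by 1.498 while ATP11A-AS1 had a log2 fold change of 0.12. C1RL, a protease related to complement C1r, fell by 1.46 while C1RL-AS1 stood at 0.13. NEBL, which encodes the actin-binding protein nebulette, fell by 1.37, MSI2, an RNA-binding regulator of progenitor cells, by 1.26 and VPS13A, a lipid transfer protein, by 1.16. Their antisense RNAs rose by 0.31, 0.24 and 0.22. Markers of other cell types had log2 fold changes of -0.06 to 0.40, and on the hybridization spikes 6 of the 201 antisense RNAs were called higher. The part of either in these 3 rises was not tested.

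Further pairs with a wide difference were GCC2-AS1 and the golgin gene GCC2 (0.48 and -0.72), GTF3C2-AS1 and GTF3C2, a subunit of a factor for RNA polymerase III (0.24 and -0.93), JARID2-AS1 and JARID2, a partner of the Polycomb complex PRC2 (0.34 and -0.78), and TSC22D1-AS1 and TSC22D1 (0.32 and -0.77). The reverse, antisense lower and sense higher, was called in 7 pairs. SPEN-AS1 fell by 0.39 while SPEN, a transcriptional repressor that acts in X inactivation, rose by 0.72, a difference of -1.11 (-1.29 to -0.93), though another bright probe set of SPEN-AS1 did not fall (0.12, adjusted p = 0.125 over all probe sets). FGD5-AS1 fell by 0.60 while FGD5, an exchange factor for Cdc42, rose by 0.42, though another probe set of FGD5-AS1 rose by 0.32. TENM3-AS1 fell by 0.59 while the teneurin gene TENM3 rose by 0.35. Some pairs moved on the sense side alone: CBLL1, an E3 ubiquitin ligase, rose by 0.71 while CBLL1-AS1 did not pass (0.02). OIP5-AS1, known as Cyrano and in mouse for steering the decay of a microRNA, fell by 0.27 on its brightest probe set and by 0.37 and 0.88 on the others, beside 0.88 for OIP5, a protein of the centromere.

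With TGX221, 2 of the 201 antisense RNAs passed the test against control, both higher, beside a background of 1.21% of all genes called and 0.809% called higher. The largest log2 fold change was 0.45 in size, and the arrays did not overlap control for 34 antisense RNAs (16.9%), beside 23.9% of all genes. The median 95% interval reached 0.14 to either side of the estimate. TMEM92-AS1 read 8.96, 9.13 and 9.03 with PIK75, 9.0, 8.95 and 9.22 with TGX221 and 8.69, 8.54 and 8.61 in control. Both treated groups lay above the controls, by 0.43 with PIK75 (adjusted p = 0.000505) and by 0.45 with TGX221 (adjusted p = 0.0313), against shared control arrays. A dimmer probe set of TMEM92-AS1, at a mean of 6.8, rose with PIK75 (0.32) but not with TGX221 (0.03, adjusted p = 0.879, limma over all probe sets). TMEM92, a gene for a membrane protein, read 8.59, 8.65 and 8.46 with PIK75, 8.37, 8.34 and 8.33 with TGX221 and 8.23, 8.28 and 8.37 in control, and passed with PIK75 (0.27, adjusted p = 0.00236) but not with TGX221 (0.05, adjusted p = 0.682).

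EIF1B-AS1 read 8.77, 8.74 and 8.80 with PIK75, 8.77, 8.69 and 8.64 with TGX221 and 8.39, 8.39 and 8.43 in control. It was higher by 0.36 with PIK75 (adjusted p = 8.1e-05) and by 0.29 with TGX221 (adjusted p = 0.0326), with no overlap with the controls in either case. Its dimmer probe sets did not pass with TGX221 (0.21 and 0.08, adjusted p = 0.0888 and 0.648, limma over all probe sets). EIF1B, a factor of translation initiation whose nearest start lies 9 bases from that of EIF1B-AS1, read 11.84, 11.75 and 11.63 with PIK75, 11.46, 11.53 and 11.43 with TGX221 and 11.49, 11.42 and 11.54 in control. It passed with PIK75 (0.26, adjusted p = 0.0041) and not with TGX221 (-0.01, adjusted p = 0.95). The calls with TGX221 changed with the settings: no antisense RNA was called with the mean of the probe sets, in a fit of only TGX221 and control arrays, or without any 1 of control replicates 1, 3 and 5 or TGX221 replicates 2 and 5, while 1 was called without PIK75 replicate 3, 4 without PIK75 replicate 5 and 7 without TGX221 replicate 3. With the hybridization spikes as scale, the rises with PIK75 of TMEM92-AS1 (0.07) and EIF1B-AS1 (0.01) did not pass.

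Between the inhibitors at their unmatched doses, 104 antisense RNAs passed, 72 higher and 32 lower with PIK75 than with TGX221, beside 47.4% of all genes called, 25.1% higher and 22.3% lower. That balance turned with the scale, to 12 higher and 43 lower on the poly-A spikes and 8 higher and 98 lower on the hybridization spikes. ZSCAN16-AS1 was higher with PIK75 by 2.52 on the log2 scale and EPB41L4A-AS1 by 0.99, while RFX5-AS1 was lower by 1.65 and NNT-AS1 by 1.27, and none of these 4 passed with TGX221 against control. TMEM92-AS1 did not differ beyond its spread (-0.02, adjusted p = 0.858), nor did EIF1B-AS1 (0.07, adjusted p = 0.285).

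The machinery that trims or ends noncoding transcripts was read beside the antisense RNAs. Of 17 measured genes of the nuclear RNA exosome and its adaptors, 1 was called higher and 10 lower with PIK75, with a median log2 fold change of -0.31 beside 0.09 over all genes. That is 64.7% called, beside 60.4% of all genes, and 58.8% lower, beside 25.2% of all genes and 43.6% of genes at 8.5 or above. MTREX, the helicase that feeds RNA to the exosome, fell by 1.18 (adjusted p = 2.98e-09), and the exosome subunits EXOSC9 and EXOSC5 fell by 0.85 and 0.66. Of 19 genes of the Integrator complex and of early termination, 4 were higher (21.1%) and 12 lower (63.2%; median -0.45), with INTS7 lower by 1.56, INTS6 by 1.26 and INTS8 by 1.16. Of 8 measured genes of nonsense-mediated decay, 3 rose (37.5%, beside 35.2% of all genes) and 0 fell, whereas 1 rose and 5 fell on the hybridization spikes. On the deposited scale the rises were in SMG8 (0.67), EIF4A3 (0.42) and SMG6 (0.26). With TGX221, 1 gene over these 3 lists passed, INTS6 (-0.57, adjusted p = 0.0254).

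Well known long noncoding RNAs without the suffix were read as well. Of 13 measured among 22 listed, 3 were called higher (23.1%) and 8 lower (61.5%) with PIK75. All genes gave 35.2% higher and 25.2% lower, and genes at 8.5 or above 28.8% and 43.6%. The median log2 fold change of the list was -0.47, beside 0.16 for the antisense RNAs and -0.08 for genes at 8.5 or above. Mean log2 values in the list ran from 5.8 (GAS5) to 13.4 (MALAT1). The difference between these lists, and the part of brightness in it, was not tested. TUG1 fell by 1.06 (adjusted p = 1.2e-08), MIAT by 0.73 and LINC-PINT by 0.70. Of 9 neuroendocrine markers, 1 was higher and 6 lower (66.7%, beside 25.2% of all genes and 43.6% of genes at 8.5 or above) with PIK75, led by DDC, the enzyme of dopamine and serotonin synthesis (-1.21), NCAM1 (-0.66) and CHGB (-0.51), and fewer cells of a type or less RNA per cell cannot be told apart in these bulk values.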

How the data were processed

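The deposited table gives 1 log2 value per probe set and array, which the authors made with RMA (version not given in the sources used here), per the submitters' processing notes. Per the labels, each array took 2 ug of total RNA. The values were used as deposited, with 0 unmapped sample columns. Of 54675 probe sets, 62 are controls, 41091 carry 1 gene symbol in the platform annotation, 1801 several and 11721 none. A gene is its brightest single-symbol probe set over 9 arrays (19775 genes). Probe sequences were not used, so the strand each probe set reads was not checked, and signals of overlapping genes cannot be told apart.

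Differences were tested with limma 3.58.1 in R 4.3.3 (lmFit and eBayes, 3 group means, 6 residual and 6.155 prior degrees of freedom), with Benjamini-Hochberg adjustment across the 19775 genes and a call below 0.05. An exact test of 3 against 3 arrays cannot go below 0.1. The antisense minus sense difference was fitted over all measured -AS1 pairs, with unadjusted 95% intervals. In data simulated for PIK75 against control over 19775 genes, 31 of 50 genes changed 1.25-fold, 46 of 50 at 1.5-fold and 50 of 50 at 2-fold were recovered, with 5 false calls. The simulation changed only 50 genes at each fold, with independent noise and no shift of whole arrays. In the data 60.4% of genes were called, so the simulation checks the code and does not give the recovery or false calls here. Tables and figures were made with Python 3.11.15, pandas 2.3.3, numpy 2.4.6 and matplotlib 3.10.9. Promoter windows are from RefSeq (GRCh38.p14), and where a gene has several the nearest start was used for distances.

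The members and lists were chosen with earlier results of these data known. Array values are given in full for ZSCAN16-AS1, EPB41L4A-AS1, the 12 largest changes among antisense RNAs called with PIK75, the up to 4 largest among those called with TGX221, and their sense genes. Other genes are named from the lists by smallest p. The alternatives were 3 scalings, a filter on dim genes, the mean of probe sets, a fit of only the groups compared, a trended robust spread, the replicate number as a block, other thresholds and membership levels, and leaving out each array.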

Additional observations from a re-analysis of the deposited data

How the results depend on the processing

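Every log2 fold change of the 14 named antisense RNAs with PIK75 kept its direction under all alternatives of scale, filter, fit and array that gave it a value, and 12 of them kept the call; TMEM92-AS1 and EIF1B-AS1 lost it on the hybridization spike scale. Leaving out 1 array at a time, the antisense RNAs called ranged from 114 to 135 with PIK75, 0 to 7 with TGX221 and 86 to 102 between the inhibitors, the sense genes from 111 to 123, pairs with both genes called from 70 to 86 and pairs with a difference interval without 0 from 104 to 115. On the poly-A spikes, 74 antisense RNAs were called with PIK75, 5 with TGX221 and 55 between the inhibitors, and 40 pairs had both genes called. On the hybridization spikes 5 were called with TGX221, 2 higher and 3 lower, and small values turned sign for sense genes with PIK75 (PRR34 -0.21, TMEM92 -0.082, EIF1B -0.095) and between the inhibitors (EIF1B-AS1 -0.22, PRR34 -0.11, TMEM92 -0.072, EIF1B -0.019). With the mean of probe sets, PSMA3 stood at 0.047 with PIK75. Leaving out genes below the median brightness removed many antisense RNAs from the test and gave 84 with PIK75, 67 between the inhibitors, 43 pairs with both genes called and 51 difference intervals without 0. With TGX221, 0 were called with the mean of probe sets, in the fit of 2 groups, at an adjusted p below 0.01 or at 1.5-fold, and 4 with the trended robust spread. At an adjusted p below 0.01, 65 were called between the inhibitors and 53 pairs had both genes called. At 1.5-fold, 19 antisense RNAs were called with PIK75, 15 between the inhibitors, 27 sense genes and 5 pairs with both genes called. With genes kept at a mean of at least 7, 184 of 302 were called with PIK75, at least 8 gave 94 of 137, and a control mean of at least 7.5 gave 126 of 191 (87 higher and 39 lower). Whether the replicate numbers pair the arrays could not be decided. Deviations of same-numbered arrays correlated at -0.13, 0.12 and -0.05 for PIK75 and control. They stood at 0.08 and -0.02 for TGX221 and control, and at 0.06 and 0.235 for PIK75 and TGX221. Differently numbered arrays gave -0.29 to 0.26, a range that holds all of these. With the number as a replicate block, 130 antisense RNAs were called with PIK75, 0 with TGX221 and 82 between the inhibitors, with 117 sense genes, 76 pairs and 112 difference intervals. The causes of these shifts were not tested. Values near the level of 7.5 lie where markers of other cell types also read, which limits what small changes there show.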
